A study of Mus musculus with 6 samples.

Results

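Retinoic acid is a signalling molecule that cells make from vitamin A, and 10 genes of its synthesis, transport, breakdown and reception were followed in the mouse retina. They were chosen by function: the aldehyde dehydrogenases *Aldh1a1* and *Aldh1a3*, the retinal reductase *Dhrs3*, the degrading cytochromes *Cyp26a1* and *Cyp26b1*, the binding proteins *Crabp1* and *Rbp4*, and the receptors *Rara*, *Rarb* and *Rarg*. The choice was made with earlier results of these data known, so counts among the 10 are descriptions and no test of the set. Matched by symbol in a count table of 55421 genes, all 10 were found, and all 10 passed the filter on low counts and were among the 16575 genes tested.

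Whole retinas of 2-month-old mice were compared, 3 from control animals (Yapfl/fl; YR612, YR613 and YR615) and 3 from *Yap* cKO animals (Yapfl/fl;RaxCreERT2; YR711, YR713 and YR714). All 6 mice carried the floxed *Yap* alleles, and all received 4-hydroxytamoxifen at postnatal days 10 and 14, so by genotype the groups differed by RaxCreERT2. Sex was not balanced between them, as given below. The study describes the Cre as active in Müller glia and in the non-pigmented epithelium of the ciliary body, and its methods the replicates as independent, with 1 animal code per library. Stranded libraries of polyadenylated RNA were counted per gene, with 24261799 to 28641877 fragments per control retina and 25972334 to 35067068 per *Yap* cKO retina. The libraries differed in how the relative level of a gene followed its length (Spearman correlation). It was -0.434, 0.197 and -0.413 in YR612, YR613 and YR615, and 0.423, 0.411 and -0.129 in YR711, YR713 and YR714. Fits with a correction for gene length are given below.

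Retinoic acid is made by oxidation of retinol to retinal and then of retinal to the acid, and the second step is carried out by the ALDH1A enzymes. CYP26 enzymes oxidize the acid to inactive products, and DHRS3 turns retinal back into retinol, so both limit its level. The acid acts by binding retinoic acid receptors (RARs), which sit with retinoid X receptors (RXRs) on repeated half-sites in DNA. In the mouse eye *Aldh1a1* is known as a dorsal and *Aldh1a3* as a ventral gene, and the *Cyp26* genes mark a band between them during development.

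*Cyp26a1* and *Rarb* are the textbook targets of the receptors, and their upstream sequences are shown because the levels of these direct targets are set beside those of the other genes. The 250 bases before the RefSeq start are printed 5′ to 3′ on the strand of the gene, from GRCm38.p6. The *Cyp26a1* sequence covers chr19:37697558-37697807 on the plus strand. The *Rarb* sequence covers chr14:16575477-16575726 on the minus strand and lies inside the annotated span of the gene, before the start of a shorter transcript. Capitals mark the half-sites of a direct repeat with a spacer of 5 bases, called DR5.
Cyp26a1: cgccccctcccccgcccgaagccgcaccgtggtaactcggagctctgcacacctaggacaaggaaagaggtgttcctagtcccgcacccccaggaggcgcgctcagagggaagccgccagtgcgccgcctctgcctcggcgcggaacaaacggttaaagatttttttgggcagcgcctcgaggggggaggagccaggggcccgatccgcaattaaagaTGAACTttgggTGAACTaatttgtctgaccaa
Rarb: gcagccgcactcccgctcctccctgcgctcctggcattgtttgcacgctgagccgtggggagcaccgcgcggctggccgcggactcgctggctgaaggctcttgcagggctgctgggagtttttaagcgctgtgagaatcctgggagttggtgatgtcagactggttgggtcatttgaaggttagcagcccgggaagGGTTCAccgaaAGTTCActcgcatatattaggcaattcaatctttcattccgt

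The half-site was searched in 4 forms on both strands: AGGTCA, the textbook form, AGTTCA, the form in both repeats above, GGTTCA, the other form in the *Rarb* repeat, and last GGGTCA. The search covered RefSeq windows from 250 bases before to 50 bases after each start. A DR5 was found in 32 of all 32817 windows (0.0975%) and in 2 of the 17 windows of these genes. In *Cyp26a1* it spans positions -32 to -16 and reads on the opposite strand, and in *Rarb* it spans positions -53 to -37. The forms searched include those of these 2 repeats, so both matches were fixed in advance. The 2 shares are therefore no test of enrichment. Repeats with spacers of 1 or 2 bases, present in 0.222% and 0.268% of all windows, were found in none of the 17. A single half-site was found in 43.7% of all windows and in 7 of the 17. The motif of the TEAD factors, the DNA-binding partners of YAP, was searched as GGAATG and was found in 14.7% of all windows and in 3 of the 17, those of *Aldh1a1*, *Crabp1* and *Rarb*. In all, 9 of the 10 genes had a window. A match is a run of letters and not a measured binding site.

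*Yap1*, the deleted gene, was lower in each *Yap* cKO retina, with 9.48, 9.52 and 9.83 TPM (a transcript level corrected for gene length and depth) in the control and 3.99, 3.76 and 3.94 TPM in the *Yap* cKO retinas. The fitted log2 ratio of *Yap* cKO to control was -1.36 (standard error, SE, 0.093, adjusted p = 0.000282), and log2 ratios below have the same direction. All p-values of single genes are those of edgeR's quasi-likelihood fit, adjusted by the Benjamini-Hochberg method over every gene tested. The rod markers summed to between 48012 and 54711 TPM in the 6 retinas, the highest sum of all marker lists, beside 1866 to 2164 TPM for retinal ganglion cells. Markers of the ciliary margin, melanin-bearing cells and the retinal pigment epithelium were also measured, and are given beside genes of the pathway.

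Among the 10 genes, the synthesis enzymes *Aldh1a1* and *Aldh1a3* had lower values in every *Yap* cKO retina than in any control retina, and the breakdown enzyme *Cyp26b1* and the binding protein *Crabp1* higher ones. By edgeR's quasi-likelihood test 0 of the 10 passed the criteria of the study's methods. The criteria are adjusted p no higher than 0.05, a change of 1.5-fold or more, and 5 TPM or more as the mean of 1 group. Over all genes tested, 132 (0.796%) passed them. The study's methods name edgeR but not which of its tests was used. With DESeq2, and likewise with the likelihood ratio test in edgeR, 3 of the 10 passed, namely *Aldh1a1* downward and *Cyp26a1* and *Crabp1* upward, and by limma-voom 0 did. Of all genes, 263 passed with DESeq2, 291 with the likelihood ratio test and 141 with limma-voom. The number of genes the study reports under these criteria lies between those of DESeq2 and the likelihood ratio test. At an unadjusted p under 0.05, 5 of the 10 genes passed (*Aldh1a1*, *Aldh1a3*, *Cyp26a1*, *Cyp26b1* and *Crabp1*), where 21.4% of all genes did. The groups were free of overlap for 3 genes that were higher (*Cyp26b1*, *Crabp1* and *Rara*), where 15.2% of all genes were so, and for 2 that were lower (*Aldh1a1* and *Aldh1a3*), where 9.04% were. These are 5 of the 10 genes, where 24.3% of all genes were without overlap in either direction. With 5 fold changes above and 5 below 0, the median log2 ratio was 0.0095, beside 0.0017 over all genes tested. Whole dissected retinas were measured. Fewer cells of a type in the eye, fewer kept at dissection and less RNA per cell cannot be told apart for any gene below.

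**Figure D1:**
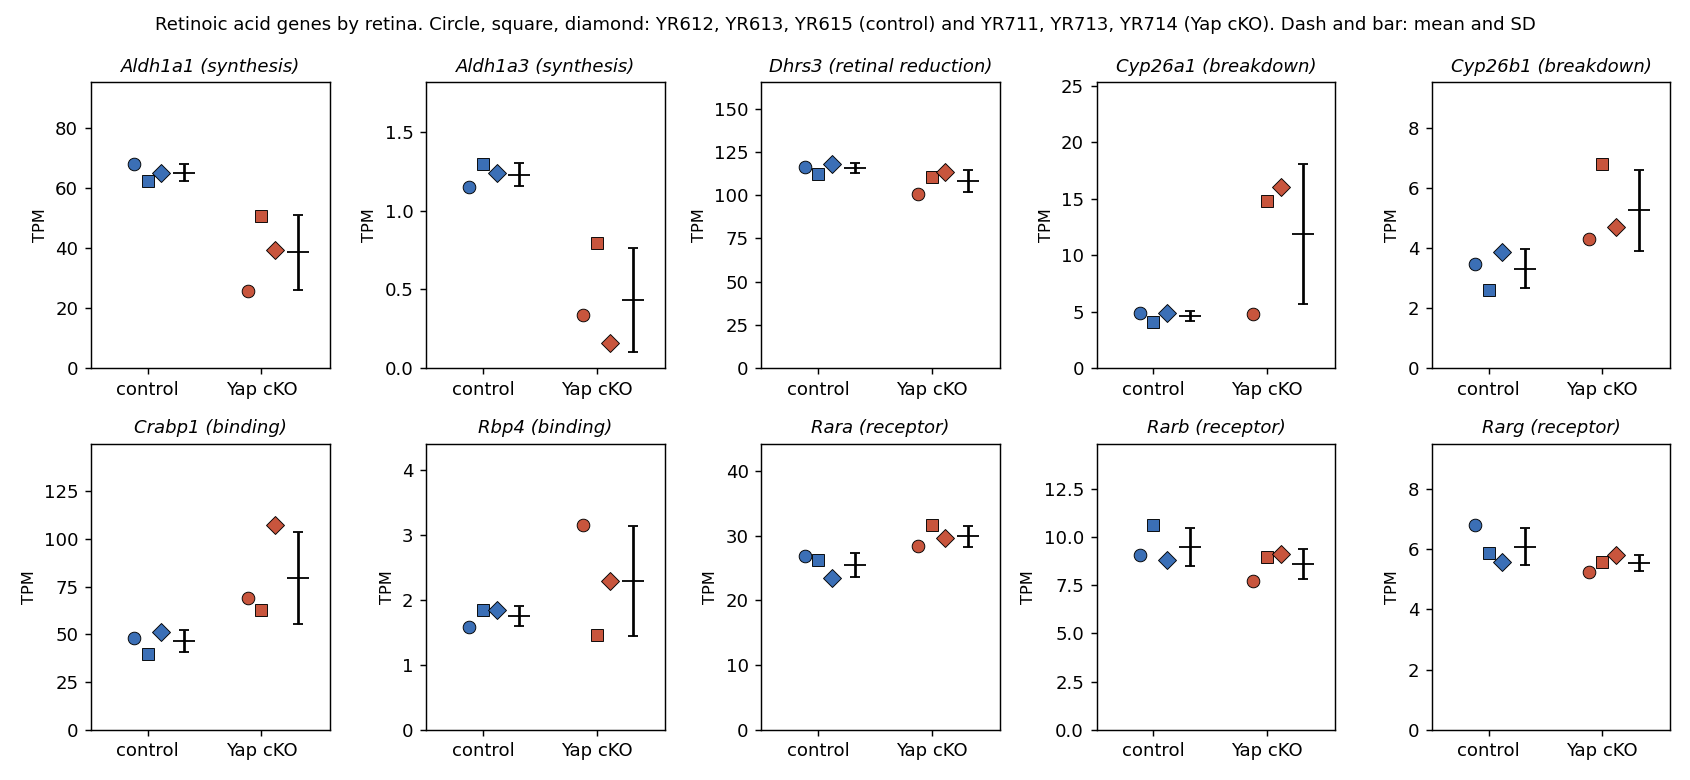
Level in TPM (y axis, from 0) of the 10 retinoic acid genes in each of the 3 control and 3 *Yap* cKO retinas, with mean and SD beside the points. *Aldh1a1* and *Aldh1a3* lie lower in every *Yap* cKO retina, *Cyp26b1*, *Crabp1* and *Rara* higher, and *Cyp26a1* is high in YR713 and YR714 but at 4.82 TPM in YR711.

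By level, the control retinas put the genes in a clear order. *Dhrs3* (115 ± 2.96 TPM, SD, n = 3) came first, followed by *Aldh1a1* (65.1 ± 2.83), *Crabp1* (46.4 ± 5.85), *Rara* (25.5 ± 1.84), *Rarb* (9.49 ± 0.980) and *Rarg* (6.09 ± 0.628). *Cyp26a1* (4.62 ± 0.435), *Cyp26b1* (3.32 ± 0.640), *Rbp4* (1.76 ± 0.152) and *Aldh1a3* (1.23 ± 0.0741) followed, and no neighbours in this order overlapped in the control retinas. In *Yap* cKO retinas the order was less clear. *Crabp1* (62.6 to 107 TPM) overlapped *Dhrs3* (101 to 113), *Aldh1a1* (25.8 to 50.7) overlapped *Rara* (28.4 to 31.6), and *Cyp26a1* (4.82 to 16.1) overlapped *Rarb* (7.70 to 9.14), *Cyp26b1* (4.30 to 6.81) and *Rarg* (5.25 to 5.80).

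*Aldh1a1* (ENSMUSG00000053279, chromosome 19 of GRCm38, 20492715 to 20643465), which oxidizes retinal to retinoic acid, was measured at 67.9 TPM in YR612, 62.3 in YR613 and 65.1 in YR615, the control retinas. In the *Yap* cKO retinas it was at 25.8 TPM in YR711, 50.7 in YR713 and 39.2 in YR714. All *Yap* cKO values lay under all control values, and they spread over a wider range (SD 12.4 against 2.83 TPM). The fitted fold was 0.571 (95% interval 0.418 to 0.778), a log2 ratio of -0.81 (SE 0.20, adjusted p = 0.0826). The gene thus missed the adjusted threshold. Leaving out control YR613 (adjusted p = 0.0380) or *Yap* cKO YR714 (adjusted p = 0.0471) let it meet every criterion. In these fits 516 and 448 of all genes passed, in that order, beside 132 with all 6 retinas. Over the 6 fits that leave out 1 retina, the log2 ratio lay between -1.05 and -0.59. It also met every criterion with a correction for gene length (-0.83, adjusted p = 0.0444).

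*Aldh1a3* (ENSMUSG00000015134, chromosome 7, 66390890 to 66427517), the second enzyme of this step, was scarce. Its counts were 35, 41 and 44 in the control retinas (1.15, 1.30 and 1.24 TPM) and 10, 32 and 5 in YR711, YR713 and YR714 (0.339, 0.796 and 0.158 TPM). The groups did not overlap, and the *Yap* cKO value nearest to the control retinas was that of YR713. The fitted fold was 0.357 (95% interval 0.190 to 0.669), a log2 ratio of -1.49 (SE 0.40, adjusted p = 0.0998). Without YR713 the log2 ratio was -2.35 (adjusted p = 0.0306). At this level the gene cannot meet the TPM minimum in any setting that keeps it.

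*Aldh1a2*, the remaining retinoic acid synthase of the family, went the other way. It had 6, 5 and 6 counts in the control retinas (0.402, 0.322 and 0.345 TPM) and 26, 18 and 35 in the *Yap* cKO retinas (1.80, 0.914 and 2.26 TPM). The groups did not overlap, with a log2 ratio of 2.11 (SE 0.44, adjusted p = 0.0517). Since *Aldh1a1* held nearly all transcripts of the trio, their summed level followed it, with 66.7 ± 2.80 TPM (SD, n = 3) in control against 40.7 ± 12.2 TPM in *Yap* cKO retinas. The share of *Aldh1a1* in that sum was 97.8%, 97.5% and 97.6% in the control retinas and 92.4%, 96.7% and 94.2% in YR711, YR713 and YR714. The difference of the means was -3.19 percentage points (two-sided exact permutation test, p = 0.1, which is the smallest p that 3 against 3 retinas can give), and -1.16 percentage points when the shares were taken from counts, which are not corrected for gene length. The share of *Aldh1a2* was 0.533 ± 0.0393% in control and 4.53 ± 2.47% in *Yap* cKO retinas.

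*Aldh1a7*, a close copy of *Aldh1a1* that lies beside it on chromosome 19 (20692953 to 20727562), was the only 1 of the 16 other tested genes of the pathway to pass all criteria, and it fell. It had 12.5, 11.7 and 10.7 TPM in the control retinas and 5.30, 7.23 and 7.30 TPM in the *Yap* cKO retinas. The log2 ratio was -0.87 (SE 0.16, adjusted p = 0.0397), close to that of *Aldh1a1*. It no longer passed when control YR612 (adjusted p = 0.186) or YR615 (0.130) was left out, nor without *Yap* cKO YR711 (0.0704) or YR713 (0.127), nor with sex as a covariate (0.0618). The mRNAs share sequence: of the 40-base stretches of *Aldh1a7*, the length of a read here, 205 of 2027 (10.1%) also occur in *Aldh1a1*, and these are 4.15% of the stretches of *Aldh1a1*. A read from those stretches matches both genes, so the value of each carries that uncertainty. No 40-base stretch was shared among *Aldh1a1*, *Aldh1a2* and *Aldh1a3*, among the *Cyp26* genes, among the RARs, or between *Crabp1* and *Crabp2*.

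*Dhrs3* (ENSMUSG00000066026, chromosome 4, 144892827 to 144928209), which returns retinal to retinol, was the most abundant of the 10 genes and varied little. It had 116, 112 and 118 TPM in the control and 101, 110 and 113 TPM in the *Yap* cKO retinas, and the groups overlapped. Its log2 ratio of -0.15 had a 95% interval from -0.34 to 0.03 (adjusted p = 0.310). *Rdh10*, which makes retinal from retinol, had 68.1 ± 4.71 TPM (SD, n = 3) in control against 65.0 ± 1.92 TPM in *Yap* cKO retinas (log2 ratio -0.12, adjusted p = 0.360).

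*Cyp26a1* (ENSMUSG00000024987, chromosome 19, 37697798 to 37701536), a retinoic acid hydroxylase and the gene whose DR5 is printed above, showed the highest fold among the 10 genes and a split among the *Yap* cKO retinas. It had 64, 56 and 74 counts in the control retinas (4.89, 4.12 and 4.86 TPM) and 61, 256 and 218 in YR711, YR713 and YR714 (4.82, 14.8 and 16.1 TPM). YR711 thus lay inside the control range while the other two were at 321% and 348% of the control mean. The fitted fold was 2.50 (95% interval 1.38 to 4.53), a log2 ratio of 1.32 (SE 0.38, adjusted p = 0.112). Without YR711 it was 1.68, and the gene met every criterion (adjusted p = 0.00238).

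Sex read from *Xist* and *Ddx3y* differed in the same way, since YR713 and YR714 were female and YR711 male. The control retinas were 2 male (YR612 and YR613) and 1 female (YR615), and the female control, at 4.86 TPM, lay with the male ones. With sex as a covariate the log2 ratio of *Cyp26a1* was 0.89 (adjusted p = 0.162). The markers of the retinal pigment epithelium were also lowest in YR711, as given below. The part of either in the *Cyp26a1* values was not tested.

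*Cyp26b1* (ENSMUSG00000063415, chromosome 6, 84571414 to 84593908), the second degrading enzyme, had 3.48, 2.62 and 3.87 TPM in the control retinas and 4.30, 6.81 and 4.70 TPM in the *Yap* cKO retinas. The groups did not overlap, but their nearest values, 3.87 and 4.30 TPM, were close. The fitted fold was 1.53 (95% interval 1.10 to 2.12), a log2 ratio of 0.61 (SE 0.21, adjusted p = 0.156), which was 0.38 without YR713. The third enzyme, *Cyp26c1*, had 0, 2 and 3 counts in the control and 0, 11 and 6 counts in YR711, YR713 and YR714, and was too scarce to be tested. As with *Cyp26a1*, YR711 was the *Yap* cKO retina at the control level. The summed TPM of the 3 enzymes was 8.38, 6.90 and 8.94 in the control retinas and 9.12, 22.4 and 21.3 in the *Yap* cKO retinas. *Cyp26a1* made up 57.5 ± 2.82% (SD, n = 3) of it in control and 64.9 ± 11.4% in *Yap* cKO retinas (exact permutation test, p = 0.4). *Cyp1b1*, a cytochrome that can also oxidize retinoids, had 8.69, 9.39 and 10.3 TPM in the control and 12.8, 14.4 and 12.3 TPM in the *Yap* cKO retinas, without overlap (log2 ratio 0.42, SE 0.10, adjusted p = 0.0810).

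*Crabp1* (ENSMUSG00000032291, chromosome 9, 54764748 to 54773110) encodes a cytosolic protein that holds retinoic acid away from its receptors and passes it to breakdown. It had 48.2, 39.8 and 51.1 TPM in the control retinas and 68.9, 62.6 and 107 TPM in YR711, YR713 and YR714. All 3 *Yap* cKO values lay over all control values, with YR714 far above the other two. The fitted fold was 1.65 (95% interval 1.18 to 2.29), a log2 ratio of 0.72 (SE 0.21, adjusted p = 0.118), and it was 0.42 without YR714. With the length correction it was 0.83, and the gene met every criterion (adjusted p = 0.0262). *Crabp1* is known in amacrine cells, whose 7 markers summed to 663 to 738 TPM in control and 789 to 843 TPM in *Yap* cKO retinas. Of these markers 0 passed the criteria by edgeR or DESeq2, and 3 had an unadjusted p under 0.05 by edgeR (21.4% of all genes had). Without overlap 4 were higher (15.2% of all genes were), and none was at 0 in any retina. The part of these markers in the *Crabp1* values was not tested.

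*Rbp4* (ENSMUSG00000024990, chromosome 19, 38116629 to 38125281), the secreted carrier of retinol, was scarce, with 14, 17 and 19 counts in the control and 27, 17 and 21 in the *Yap* cKO retinas. In TPM these were 1.58, 1.85 and 1.84 against 3.15, 1.45 and 2.29, and the groups overlapped. The log2 ratio of 0.29 had a 95% interval from -0.42 to 1.01 (adjusted p = 0.611), and it was 0.010 without YR711. At this depth no difference was detectable.

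Genes of retinol uptake and storage differed among the *Yap* cKO retinas in the order of the pigment epithelium markers. *Stra6*, the receptor for RBP4, had 13.4, 13.7 and 11.3 TPM in the control and 6.66, 8.71 and 12.8 TPM in YR711, YR713 and YR714 (log2 ratio -0.50, adjusted p = 0.217). *Lrat*, which esterifies retinol for storage and was picked after its values were seen, had 9.12, 11.6 and 11.4 TPM against 3.45, 5.86 and 19.1 TPM (-0.22, adjusted p = 0.817). In both YR711 was lowest and YR714 lay above the lowest control value. The 5 markers of the retinal pigment epithelium summed to 210 to 238 TPM in control retinas and to 60.9, 104 and 228 TPM in YR711, YR713 and YR714, the same order. Of the 5 markers 0 passed all criteria, and 2 had an unadjusted p under 0.05 by edgeR (21.4% of all genes had). Without overlap 2 were lower (9.04% of all genes were). The part of these markers in the *Stra6* and *Lrat* values was not tested. Without YR714, *Lrat* (-1.26, adjusted p = 0.0103) and *Stra6* (-0.81, adjusted p = 0.0205) met every criterion. In that fit 448 of all genes passed, beside 132 with all 6 retinas. *Crabp2*, which delivers retinoic acid to the nucleus, had 2.24 ± 0.369 TPM (SD, n = 3) in control against 1.85 ± 0.173 TPM in *Yap* cKO retinas (log2 ratio -0.33, adjusted p = 0.456).

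The log2 ratios of the receptors were close to 0. *Rara* (ENSMUSG00000037992, chromosome 11, 98927818 to 98974942) had 26.9, 26.2 and 23.4 TPM in the control and 28.4, 31.6 and 29.7 TPM in the *Yap* cKO retinas. These did not overlap, and the log2 ratio was 0.17 (95% interval -0.04 to 0.38, adjusted p = 0.305). *Rarb* (ENSMUSG00000017491, chromosome 14, 16430839 to 16819156) had 9.07, 10.6 and 8.80 TPM in the control and 7.70, 8.95 and 9.14 TPM in the *Yap* cKO retinas. The groups overlapped, and the log2 ratio was -0.20 (95% interval -0.46 to 0.07, adjusted p = 0.355). *Rarb* and *Cyp26a1* both carry a DR5, and YR713 and YR714, with over 14 TPM of *Cyp26a1*, had *Rarb* levels inside the control range. *Rarb* was counted over the whole gene, so the shorter transcript that starts after its DR5 was not measured apart. Whether the receptors were more or less active was not tested. *Rarg* (ENSMUSG00000001288, chromosome 15, 102234938 to 102257517) had 6.79, 5.89 and 5.59 TPM in the control and 5.25, 5.58 and 5.80 TPM in the *Yap* cKO retinas. It overlapped too, with a log2 ratio of -0.19 (95% interval -0.50 to 0.11, adjusted p = 0.425). The intervals of *Rara* and *Rarb* lie within a 1.5-fold change in either direction, and so does that of *Rarg*.

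The shares of the receptors in their summed transcripts separated the groups with little spread. *Rara* made up 62.9%, 61.4% and 62.0% of that sum in the control retinas and 68.7%, 68.5% and 66.5% in the *Yap* cKO retinas. The means were 62.1 ± 0.785% and 67.9 ± 1.20% (SD, n = 3), a difference of 5.83 percentage points. The share of *Rarb* was 23.1 ± 1.83% and 19.5 ± 0.934%, and that of *Rarg* 14.8 ± 1.05% and 12.6 ± 0.460%. Each of the 3 shares separated the groups without overlap, and each exact permutation test gave p = 0.1, the smallest this design allows. The shares add up to the whole, so they are not independent of each other. The summed level of the 3 receptors was 41.1 ± 2.84 TPM in control against 44.1 ± 2.45 TPM in *Yap* cKO retinas. The RXR partners were more abundant, at 118 ± 3.45 and 122 ± 2.90 TPM in sum. *Rxra* (log2 ratio 0.09, adjusted p = 0.524), *Rxrb* (-0.07, adjusted p = 0.600) and *Rxrg* (-0.03, adjusted p = 0.887) did not pass, and the direction of *Rxrg* turned with the length correction (0.07).

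**Figure D2:**
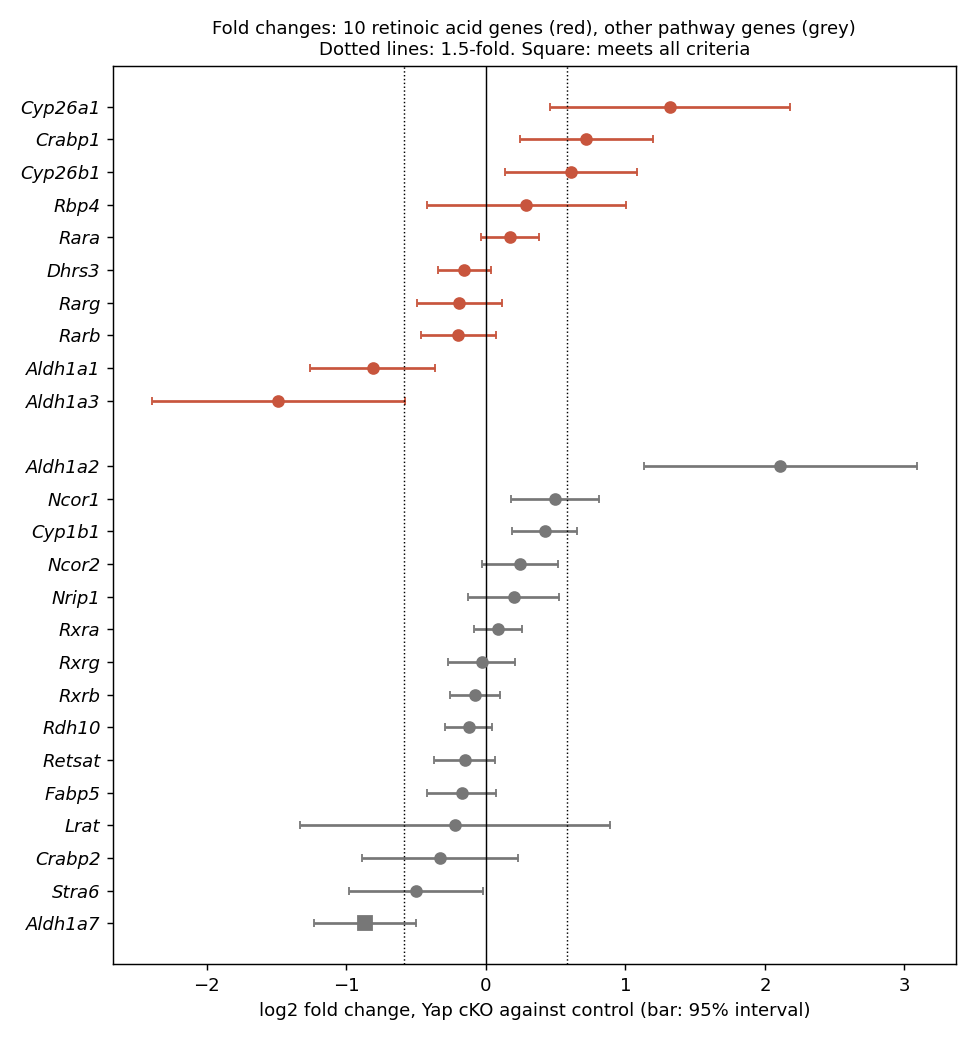
Log2 ratio, *Yap* cKO against control (x axis), with its 95% interval for the 10 retinoic acid genes (red) and other tested pathway genes (grey), dotted lines marking a 1.5-fold change. The receptors lie close to 0, *Cyp26a1* (1.32) and *Aldh1a3* (-1.49) lie at the ends among the 10 genes, and *Aldh1a7* (square) meets all criteria.

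Over the 21 other pathway genes listed, 16 were tested, 1 passed the criteria downward (*Aldh1a7*) and 0 passed upward, beside 0.585% and 0.211% of all genes tested. Their median log2 ratio was -0.099, with 6 above and 10 below 0. The 5 that were too scarce to be tested were *Adh1*, *Adh7*, *Bco1*, *Rbp7* and *Cyp26c1*. The plot of fold changes shows the difference in spread: the intervals of the RXRs and RARs are narrow, and those of *Lrat*, *Aldh1a2*, *Aldh1a3* and *Cyp26a1* are wide.

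Genes induced by retinoic acid in other tissues were read from a list of 8, of which 5 were tested. Of these 1 passed the criteria, downward, where 0.585% of all genes tested did. *Rarres2*, which encodes the secreted protein chemerin, fell from 15.7, 10.6 and 13.1 TPM in the control to 2.18, 4.80 and 3.69 TPM in the *Yap* cKO retinas. Its log2 ratio was -1.92 (SE 0.26, adjusted p = 0.00999). Leaving out control YR612 (adjusted p = 0.0556) or YR615 (0.0625) ended the call. The other tested genes of the list did not pass: *Tgm2* had a log2 ratio of -0.43 (adjusted p = 0.167), *Ret* of 0.22 (0.172), *Nr2f1* of -0.15 (0.409) and *Nr2f2* of -0.14 (0.505). *Ret* was higher without overlap, as 15.2% of all genes tested were, and so was *Rarres1*, which was too scarce to be tested. *Stra8* had 0 counts in all 6 retinas, which allows up to 3 counts in each.

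Since *Aldh1a1* and *Aldh1a3* differ along the dorsal to ventral axis of the eye, genes of that axis were read beside them. By edgeR's quasi-likelihood test 0 of the 7 dorsal and 0 of the 5 tested ventral genes passed, with 2 of each at an unadjusted p under 0.05 (21.4% of all genes were). *Bmp4* passed by DESeq2 and by the likelihood ratio test. The dorsal genes summed to 534 to 558 TPM in control and to 495, 584 and 571 TPM in YR711, YR713 and YR714, and the ventral genes to 882 to 986 TPM and to 1185, 805 and 925 TPM. Most of each sum was 1 cone opsin, *Opn1mw* (393 to 463 TPM over the 6 retinas) in the dorsal and *Opn1sw* (721 to 1061 TPM) in the ventral list. Without it, which was tried after the data were seen, the dorsal genes summed to 105 to 112 TPM in control and to 101, 121 and 128 TPM in YR711, YR713 and YR714. The ventral genes then summed to 120 to 152 TPM and to 123, 84.7 and 138 TPM. YR711, which had the lowest *Aldh1a1*, thus had the lowest dorsal sum with or without the opsin, while its ventral sum was the highest with *Opn1sw* and inside the control range without it. The part of this in the *Aldh1a1* values was not tested. *Tbx5*, a dorsal transcription factor, had 1.91, 2.59 and 2.31 TPM in the control and 1.84, 3.86 and 3.41 TPM in YR711, YR713 and YR714, above the control range in the same retinas as *Cyp26a1*. Its log2 ratio was 0.38 (adjusted p = 0.408). *Vax2*, the ventral counterpart of *Tbx5*, had 123, 86.3 and 102 TPM in the control and 86.8, 53.2 and 108 TPM in the *Yap* cKO retinas. The dorsal *Tbx3* (log2 ratio 0.29, adjusted p = 0.172) and the ventral *Ephb2* (0.18, adjusted p = 0.211) were higher without overlap, YR711 included. Of all genes tested, 15.2% were higher without overlap. *Bmp4*, a dorsal signal, had 5.39, 5.0 and 5.96 TPM in the control and 0.975, 2.45 and 4.04 TPM in the *Yap* cKO retinas, all lower (log2 ratio -1.18, adjusted p = 0.127). It met the criteria without YR714 (-1.69, adjusted p = 0.0199), a fit in which 448 of all genes passed, beside 132 with all 6 retinas.

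Other cell types were followed as summed markers beside the synthesis genes, whether or not they moved with them. The 7 melanin pigment markers summed to 75.0 to 81.9 TPM in control and to 17.9, 50.6 and 29.0 TPM in YR711, YR713 and YR714, which is the order of *Aldh1a1* (25.8, 50.7 and 39.2 TPM). Of the 7, *Pmel* passed the criteria downward (0.585% of all genes did) and 6 were lower without overlap (9.04% of all genes were). The 7 matched markers of the ciliary margin summed to 92.5 to 98.4 TPM in control and to 40.5, 48.5 and 38.6 TPM in the *Yap* cKO retinas, the order of *Aldh1a3*. Of them *Optc* passed the criteria downward, from 48.0 ± 2.30 TPM (SD, n = 3) to 4.56 ± 3.32 TPM. The other 6 summed to 42.3 to 50.2 TPM in control and to 37.6, 40.1 and 36.2 TPM in YR711, YR713 and YR714, a smaller difference in the same order. No marker of either list, nor of the pigment epithelium, was at 0 in any retina. The 6 fibroblast markers summed to 10.82 to 13.10 TPM in control retinas. In YR711, YR713 and YR714 they summed to 8.98, 10.76 and 7.80 TPM, also the order of *Aldh1a3*. That order is not particular to these lists. The rod markers had it too, at 51967, 52743 and 48012 TPM, though they overlapped the control retinas (51026 to 54711 TPM). No order of retinas was tested. Of them 0 passed the criteria, and *Col1a2* was lower without overlap (log2 ratio -2.16, adjusted p = 0.00236). The 4 lens markers, all scarce, summed to 2.62 to 4.04 TPM in control and to 2.18, 1.23 and 1.83 TPM in the *Yap* cKO retinas. The 10 markers of Müller glia, a cell type in which the Cre is active, summed to 7789 to 8087 TPM in control and 6858 to 7174 TPM in *Yap* cKO retinas, and 0 of the 10 passed by edgeR or DESeq2. By log2 ratio 7 were lower and 3 higher. An unadjusted p under 0.05 was found for 6, where 21.4% of all genes had one. The 6 include *Kcnj10*, which was higher without overlap (log2 ratio 0.28). In percent of the control mean, *Aldh1a1* was at 39.7, 77.8 and 60.2 in YR711, YR713 and YR714, and the Müller glia sum at 90.6, 86.6 and 88.9. The part of these cell types in the values of *Aldh1a1*, *Aldh1a3* and *Aldh1a7* was not tested.

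**Figure D3:**
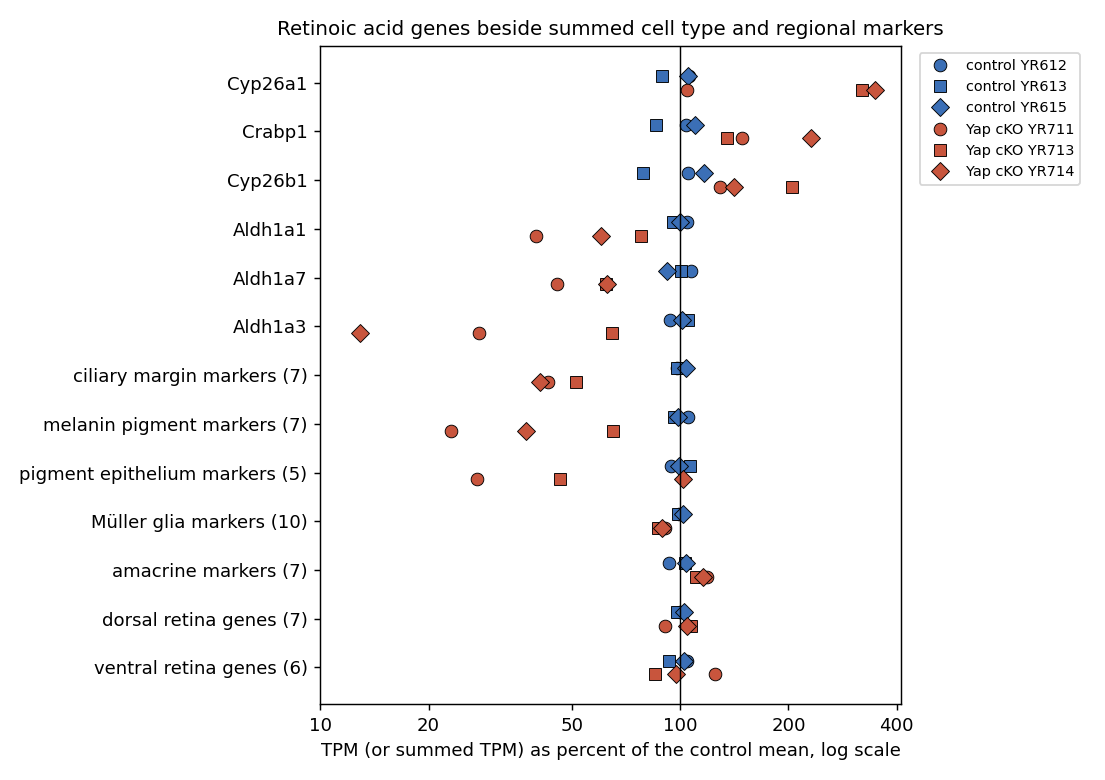
TPM or summed TPM in percent of the control mean (x axis, log scale) for each of the 6 retinas, for 6 genes of retinoic acid synthesis, breakdown and binding and for marker lists with the number of genes in brackets. *Aldh1a1*, *Aldh1a3* and *Aldh1a7* and the ciliary margin and pigment markers lie below 100 in every *Yap* cKO retina, and the pigment epithelium sum does so in YR711 and YR713 but not in YR714.

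Which retina was left out moved the size of the differences but turned the direction of none of the 10 genes. The widest range belonged to *Aldh1a3*, from -2.35 to -1.13 on the log2 scale, and *Cyp26a1* ranged from 1.04 to 1.68. *Dhrs3* and the receptors stayed between -0.26 and 0.23 in every one of these fits. In the plot of these fits *Cyp26a1* stands out by its value without YR711 and *Crabp1* by its value without YR714, the retina with the highest level of that gene.

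**Figure D4:**
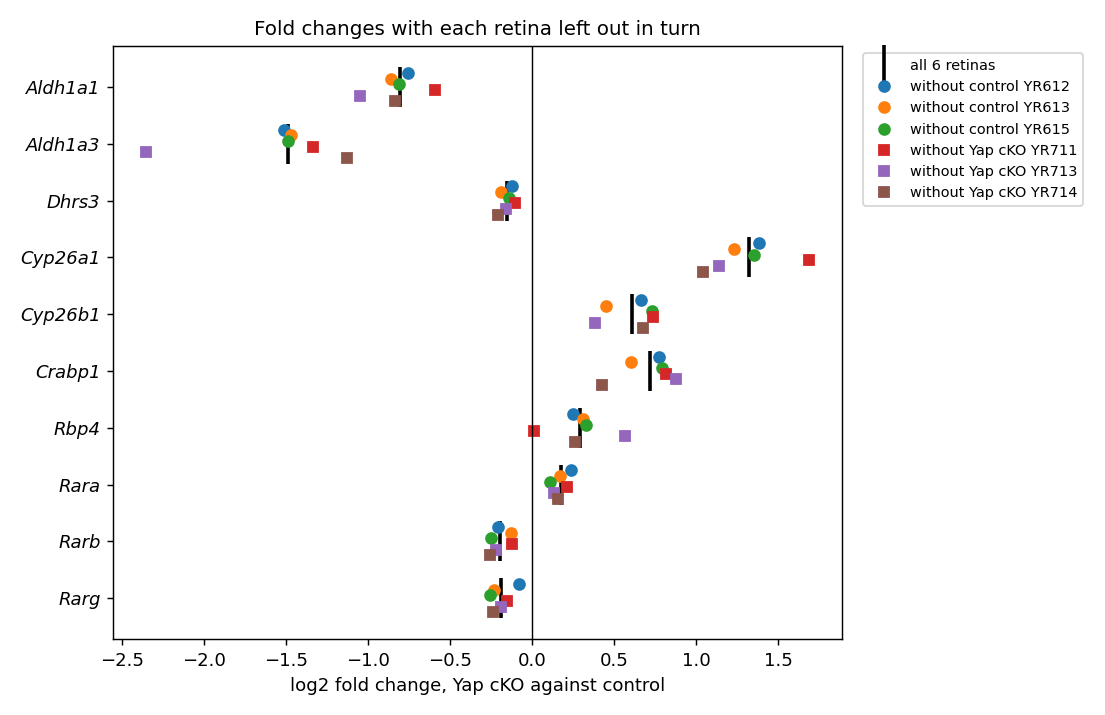
Log2 ratio, *Yap* cKO against control (x axis), of the 10 retinoic acid genes with all 6 retinas (black bar) and with 1 retina left out at a time (circles control, squares *Yap* cKO). All points of a gene lie on 1 side of 0, with *Rbp4* reaching 0.010 without YR711.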

How the data were processed

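Retinal RNA of 3 control and 3 *Yap* cKO mice was measured by stranded, paired-end sequencing of polyadenylated RNA, and groups were taken from the sample labels. The authors aligned reads to GRCm38 with STAR 2.7.3a and counted fragments per gene with featureCounts 1.6.2 (strand setting 2, annotation release 98, per the file headers). The deposited values are raw counts, without normalization, in 6 sample columns, all of which were used, beside each gene's exonic length.

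TPM were computed here from counts and exonic lengths. After filterByExpr and TMM scaling, the groups were compared by the quasi-likelihood test of edgeR 4.0.16 in R 4.3.3 (common dispersion 0.0126), with Benjamini-Hochberg adjustment and no covariate. Standard errors follow from the F statistic. Alternatives used limma 3.58.1, DESeq2 1.42.0, other size factors and filters, offsets corrected for length (loess, span 0.3), sex as a covariate, and each retina left out. Simulated counts with 200 changed genes were used to test the steps. Symbols and positions came from GENCODE, and upstream sequences from RefSeq (GRCm38.p6).

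The genes followed and all lists were chosen with earlier results of these data known. The text names all 10 genes, *Yap1*, pathway genes that passed or are paralogs, carriers or partners, and up to 3 genes more per list by role. *Nr2f1*, *Nr2f2*, *Stra8*, *Pmel*, *Optc*, *Col1a2*, *Kcnj10*, *Opn1mw*, *Opn1sw*, *Lrat*, *Cyp1b1*, *Ncor1* and the scarce genes were named after their values were seen. So were *Tbx3*, *Ephb2*, *Col1a1*, *Col3a1* and *Pdgfra*. Some listed genes are counted but not reported here by name.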

Additional observations from a re-analysis of the deposited data

How the results depend on the processing

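No alternative turned the direction of any of the 10 genes. Their count passing all criteria, 0 in the main test, was 3 with edgeR's likelihood ratio test and 3 with DESeq2 (*Aldh1a1*, *Cyp26a1* and *Crabp1* in both), 4 without a filter on low counts (*Cyp26b1* added) and 2 with length-corrected offsets, and 0 to 1 with each retina left out. For the other pathway genes it was 1, against 2 without the filter, 0 with sex as a covariate and 0 to 4 with a retina left out. Over all genes it was 132, against 291 with the likelihood ratio test, 263 with DESeq2 and 369 without the filter, and 38 to 516 with a retina left out (lowest without control YR615, highest without control YR613). Why these counts differ was not tested. Size factors by median ratio or library size, limma-voom and a CPM filter left the 10 genes at 0. *Rbp4* was not in the fit with the CPM filter. The log2 ratio of *Rxrg* turned with the length correction (0.072) and ranged from -0.087 to 0.016 with a retina left out (above 0 without control YR615), and that of *Lrat* ranged from -1.26 to 0.17 (above 0 without YR711 and, at 0.046, without YR713). The difference in the share of *Aldh1a1*, -3.19 percentage points, was -1.16 with shares of counts and -4.34 to -2.16 with a retina left out (nearest 0 without YR711). With a retina left out the difference was 5.44 to 6.52 for the share of *Rara*, -4.56 to -2.74 for *Rarb* and -2.73 to -1.68 for *Rarg*. No paired analysis was possible because the labels give animal codes and no replicate numbers that the groups share. Depth limits *Aldh1a3*, *Rbp4*, *Aldh1a2* and *Cyp26c1*, and with 3 retinas a group no exact test can go below p = 0.1.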

Other observations

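Scarce genes of the pathway held a few values that no test covers. *Adh1*, an alcohol dehydrogenase that can oxidize retinol, had 13, 10 and 9 counts in the control and 2, 6 and 2 in the *Yap* cKO retinas, with no overlap. *Rarres1*, a gene named for its induction by a retinoid, had 2, 0 and 0 counts in the control and 5, 3 and 4 in the *Yap* cKO retinas. Both were kept from the test by the filter on low counts, and both were named after their values were seen. *Ncor1*, a corepressor of the retinoic acid receptors, had 49.0, 71.0 and 48.3 TPM in the control and 87.4, 88.9 and 69.9 TPM in the *Yap* cKO retinas. Its log2 fold change was 0.49 (edgeR adjusted p = 0.110), which was 0.29 with the length correction, and it met the criteria without control YR613 (0.67, adjusted p = 0.0101). In that fit 516 of all genes passed, beside 132 with all 6 retinas.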
